A study of Mus musculus with 12 samples.

Results

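The genes described here are 10 genes of iron storage, transport and sensing in the newborn mouse kidney, taken from 24062 gene symbols counted in each of 12 kidneys. They are the light and heavy ferritin chains Ftl1 and Fth1, the transferrin receptor Tfrc, the iron exporter Slc40a1, the iron importer Slc11a2, the iron sensors Ireb2 and Aco1, the heme oxygenase Hmox1, the transferrin gene Trf and the siderophore carrier Lcn2. The members were selected on their symbols and on measured values, because Ftl1 took more counts than any other gene in every kidney, so that rank is a description and was not tested. All 10 passed the filter on low counts in every comparison.

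RNA of whole kidneys at postnatal day 3 (P3) was sequenced from 4 groups of 3 kidneys, and each group came from 2 litters. Litters of the same number in a mutant group and its controls are treated here as 1 litter, which the labels do not state outright. LIN28OE kidneys carried a doxycycline-inducible human LIN28B transgene on a C57BL/6 background, switched on by a short pulse given to the dam late in gestation, and only in cells that had expressed Wt1-Cre. Their controls were WT littermates on C57BL/6 that shared the dams' doxycycline. The let7KO kidneys came from a constitutive knockout of let-7a1, let-7d and let-7f1 on a mixed background of CD1 and C57BL/6, with WT littermates of that mixed strain as controls, and no doxycycline is described for that model. Each comparison asks whether perturbing the Lin28/let-7 axis, which times the end of nephron formation, came with another level of the iron genes at P3. In whole kidney, fewer cells of a type and less RNA per cell cannot be told apart. The kidneys of a group are separate samples from a few litters. The p-values of a comparison set its difference against the spread between these kidneys.

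Cells hold spare iron inside ferritin, a hollow shell built from light chains, which help the iron core to form, and heavy chains, which oxidize the iron. Iron bound to transferrin enters through the transferrin receptor, and iron leaves through ferroportin, the product of Slc40a1. Iron regulatory proteins, made from Aco1 and Ireb2, bind hairpins called iron-responsive elements when iron is scarce. Bound at the start of a ferritin or ferroportin mRNA they block its translation, and bound in the 3′ UTR of Tfrc they protect the mRNA from decay, so that an mRNA level of ferritin does not give its protein level.

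These hairpins are shown because the iron regulatory proteins bind them in the mRNAs of 4 members. Each line gives 27 bases of the transcript strand on GRCm38 (the build named mm10), with the loop in capitals, and the 5 bases on either side of the loop pair with each other.
Ftl1, 5′ UTR, chr7:45459780-45459806, minus strand: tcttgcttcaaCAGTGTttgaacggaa
Fth1, 5′ UTR, chr19:9982733-9982759, plus strand: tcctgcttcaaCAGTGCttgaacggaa
Slc40a1, 5′ UTR, chr1:45925466-45925492, minus strand: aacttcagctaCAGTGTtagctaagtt
Tfrc, 3′ UTR, chr16:32631220-32631246, plus strand: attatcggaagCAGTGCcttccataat
Tfrc, 3′ UTR, chr16:32631599-32631625, plus strand: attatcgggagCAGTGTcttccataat
Tfrc, 3′ UTR, chr16:32631664-32631690, plus strand: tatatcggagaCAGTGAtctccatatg
Tfrc, 3′ UTR, chr16:32631711-32631737, plus strand: attatcgggaaCAGTGTttcccataat
Ftl1, Fth1 and Slc40a1 each had 1 match in the 5′ UTR, and Tfrc had 4 in its 3′ UTR. The pattern searched was a C, 5 stem bases, the loop CAGTGN and 5 bases pairing with the stem, with G-U pairs allowed, on the transcript strand of annotated UTRs. It occurred in the 5′ UTR of 31 of 21901 protein-coding genes (0.142%) and in the 3′ UTR of 129 (0.589%). The other 6 members had no match to these letters, among them Slc11a2, an isoform of which is known to carry an element of a different shape.

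Depth ran from 39926235 to 61872736 counts a kidney, so that a count of 3 equals 0.0485 to 0.0751 CPM, the counts of a gene in every 1000000 counts of a library. Raw counts on mouse Lin28b were 232, 224 and 71 in the LIN28OE kidneys, against 0, 18 and 33 in their controls and at most 8 in any kidney of the let-7 experiment. LIN28OE replicate 3, with 71 counts, was the lowest of its group on this row, and it was also the only LIN28OE kidney from litter 2. The transgene is human, and the authors reported endogenous Lin28b mRNA as unchanged in this model. Whether reads of the transgene were counted on the mouse row was not tested. The rows Mirlet7a-1, Mirlet7d and Mirlet7f-1 held 0 counts in all let7KO kidneys, but Mirlet7a-1 and Mirlet7f-1 held at most 8 in any WT kidney too, and Mirlet7d held 0, 19 and 35 in the mixed controls. Kidney markers were present in every group: 10 proximal tubule genes summed to between 1182 and 4606 CPM and 8 cap mesenchyme genes (nephron progenitors) to between 171 and 799 CPM. Of 19 red blood cell genes, the adult globins Hba-a1, Hba-a2, Hbb-b2, Hbb-bs and Hbb-bt were listed at 0 in all 12 kidneys, while Alas2, the erythroid enzyme of heme synthesis, averaged 44.3 to 77.1 CPM over the groups. Globin genes have near-identical or overlapping copies, so these zeros do not show that globin RNA was absent.

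Ftl1 stood first in counts in 12 of 12 kidneys, with 1.14 to 1.75 times the counts of the next gene, which was Gpx3 in 6 of them. Fth1 ranked between 3 and 28. To compare genes, CPM was divided by the length of the mRNA in kilobases (kb), 968 bases for Ftl1 and 929 for Fth1. On that scale the level of Ftl1 was 7900 ± 2409 CPM per kb and that of Fth1 3007 ± 1102 (SD over 12 kidneys, here and for the genes that follow).

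The exporter Slc40a1 came next, at 61.7 ± 15.4 CPM per kb, and no kidney's Slc40a1 reached the level of Fth1 in any kidney. From Slc40a1 down the ranges of all neighbours overlapped, and Slc40a1 lay above Aco1, the next gene, in 8 of 12 kidneys. The genes below Slc40a1 were Aco1 (44.9 ± 12), Hmox1 (43.5 ± 30.7), Lcn2 (20.3 ± 13.4), Tfrc (16.2 ± 6.03), Slc11a2 (11.9 ± 3.28), Ireb2 (9.85 ± 2.62) and Trf (9.77 ± 3.31), all in CPM per kb. The ferritin mRNAs thus lay far above the transporters and sensors, while the order within the 8 genes below the ferritins changed from kidney to kidney. Lcn2 spread most, with its highest kidney at 34.4 times its lowest, followed by Hmox1 at 6.23 times. The other 8 genes spanned 2.49 to 3.18 times.

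**Figure D1:**
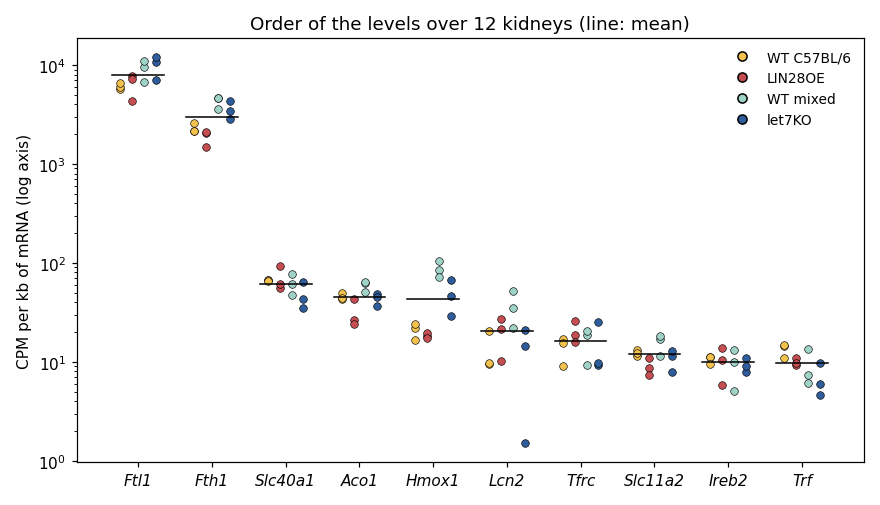
Level of each gene in CPM per kb of mRNA on a log axis, 1 point per kidney coloured by group, with a line at the mean of the 12 kidneys. Both ferritin genes sit far above the other 8 genes, and Ftl1 lay above Fth1 in 12 of 12 kidneys.

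The differences that passed the test lay between the control groups and not between mutants and their littermates. Hmox1, which breaks down heme and frees its iron, was 4.14-fold higher in WT kidneys of mixed strain than in WT kidneys of C57BL/6, and Fth1, the heavy ferritin chain, was 1.87-fold higher. In edgeR's quasi-likelihood test these 2 of 10 genes passed an adjusted p of 0.05, where 0.627% of 16598 genes did, and DESeq2 called the same 2 (2.39% of all genes). At an unadjusted p under 0.05, 4 of 10 were called (Ftl1, Fth1, Hmox1 and Lcn2), all higher in the mixed controls, against 9.58% of all genes. The 3 mixed controls did not overlap the 3 C57BL/6 controls for 5 of 10 genes, the same 4 and Aco1, all higher in the mixed strain, against 19.5% of all genes apart in either direction. The median log2 difference was 0.36 over the 10 genes and -0.01 over all genes.

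The difference was carried by whole experiments. All 6 kidneys of mixed strain, let7KO included, lay above all 6 of C57BL/6, LIN28OE included, for 2 of 10 genes, Fth1 and Hmox1, while 3.55% of all genes were apart in either direction. Strain, litters, doxycycline and experiment changed together between these kidneys and cannot be told apart. Tubule and progenitor markers differed between the control groups too, as given further on. The Hmox1 call held when any one of the 6 control kidneys was left out. The Fth1 call was lost, at adjusted p of 0.0925 to 0.205, without any one of the 3 C57BL/6 controls or without mixed control 1 or 2, although its log2 difference stayed between 0.83 and 0.99 in those fits.

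Neither mutation came with a called change in these genes. In LIN28OE against its littermates, 0 of 10 passed an adjusted p of 0.05 with edgeR (1.23% of 15793 genes did) or with DESeq2 (7.89%), and 0 passed an unadjusted p of 0.01 (7.33% of genes). At an unadjusted p under 0.05, 2 of 10 were called, Slc11a2 and Aco1, both lower, against 18.0% of all genes. The LIN28OE kidneys lay wholly below their controls for 3 of 10 genes, Fth1, Slc11a2 and Trf, against 23.8% of all genes apart in either direction. These shares are near those of genes in general. The median log2 fold change was -0.14 over the 10 genes and -0.02 over all genes. LIN28OE replicate 3 decided part of this. With only the LIN28OE kidneys of litter 1 left, Aco1 (log2 -0.86, adjusted p = 0.00413), Slc11a2 (log2 -0.63, adjusted p = 0.0369) and Ftl1 (log2 0.29, adjusted p = 0.0379) passed in edgeR. Calls rose over all genes in that fit, to 12.8% of 16258.

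In let7KO against its littermates, again 0 of 10 passed an adjusted p of 0.05 with edgeR (0.0194% of 15500 genes did) or with DESeq2 (1.31%), and 0 passed an unadjusted p of 0.01 in edgeR (2.73% of genes). DESeq2 gave Trf and Lcn2 no adjusted p there (unadjusted p = 0.317 and 0.111), so neither could pass with it. Shares with DESeq2 count genes without an adjusted p as not called. At an unadjusted p under 0.05 in edgeR, 4 of 10 were called, namely Slc11a2, Aco1, Hmox1 and Lcn2, all lower, against 10.8% of all genes. The let7KO kidneys lay wholly below their controls for 3 of 10 genes, Aco1, Hmox1 and Lcn2, against 16.7% of all genes apart in either direction. Of the 10 fold changes, 9 were below 0, with a median log2 of -0.41 against -0.02 over all genes, and 7 were below 0 with each library's transcript-length slope, described further on, as a covariate. The difference between the effects of the models, tested as an interaction in 12 kidneys, passed an adjusted p of 0.05 for 0 of 10 genes with edgeR (0.00602% of genes did) or with DESeq2 (0.609%), and an unadjusted p under 0.05 for 1 of 10, Lcn2, against 6.27% of all genes.

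**Figure D2:**
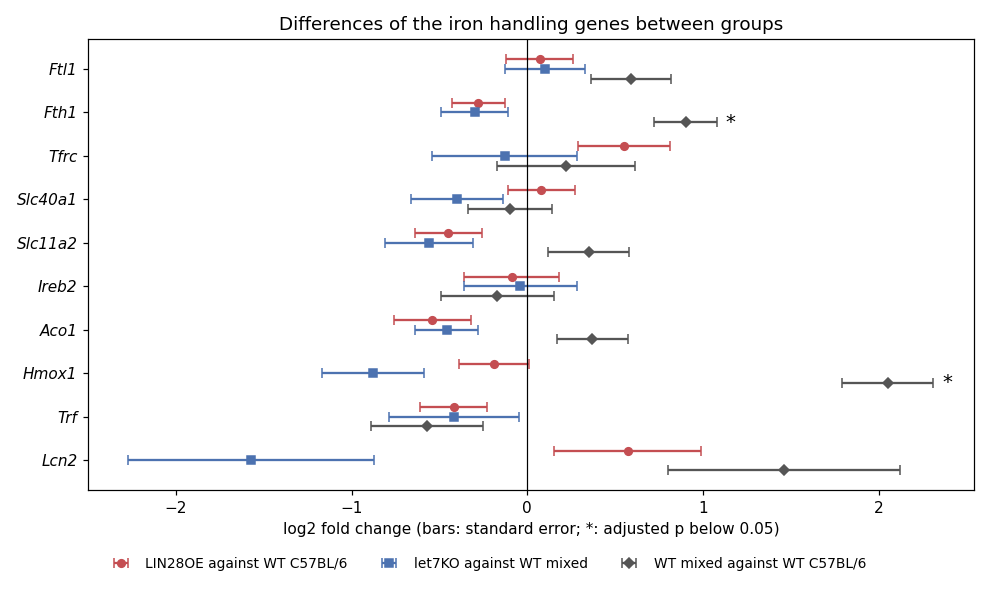
Log2 fold change of each gene, with its standard error, for LIN28OE against WT C57BL/6, let7KO against WT mixed, and WT mixed against WT C57BL/6. The asterisks mark the 2 values with an adjusted p below 0.05, Fth1 and Hmox1 between the control groups.

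Among the ferritins, Ftl1, the light chain, measured 5502, 5843 and 6302 CPM in the C57BL/6 controls and 7470, 6949 and 4156 CPM in LIN28OE replicates 1 to 3. It measured 9336, 10717 and 6588 CPM in the mixed controls and 6870, 10428 and 11610 CPM in let7KO. The C57BL/6 controls were tight, at an SD of 6.83% of their mean, while the other 3 groups spread over 23.7% to 28.8%. LIN28OE exceeded its controls in both kidneys of litter 1 and lay below them in litter 2, so that the log2 fold change was 0.07 ± 0.19 (SE) with an adjusted p of 0.889 in edgeR. The let7KO value was 0.10 ± 0.23 (adjusted p = 0.915, edgeR).

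Fth1, the heavy chain, measured 2010, 2010 and 2383 CPM in the C57BL/6 controls and 1922, 1964 and 1382 CPM in LIN28OE, below the controls in all 3 kidneys and in both litters. The mixed controls held 4342, 4294 and 3339 CPM and the let7KO kidneys 2626, 3212 and 4036 CPM, which overlapped. The log2 fold change was -0.28 ± 0.15 in LIN28OE (adjusted p = 0.356) and -0.30 ± 0.19 in let7KO (adjusted p = 0.596, edgeR for both). Between the control groups Fth1 passed, at a log2 difference of 0.90 ± 0.18 and an adjusted p of 0.0365 in edgeR, and in LIN28OE it passed with the length-slope covariate and in no other fit there. Ftl1 differed between the control groups by 0.59 ± 0.23 on the log2 scale, with an adjusted p of 0.405 in edgeR. Together the ferritin genes took 0.844% ± 0.0482 of all counts in the C57BL/6 controls, 0.798% ± 0.18 in LIN28OE, 1.28% ± 0.229 in the mixed controls and 1.20% ± 0.237 in let7KO (SD, n = 3 kidneys each).

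**Figure D3:**
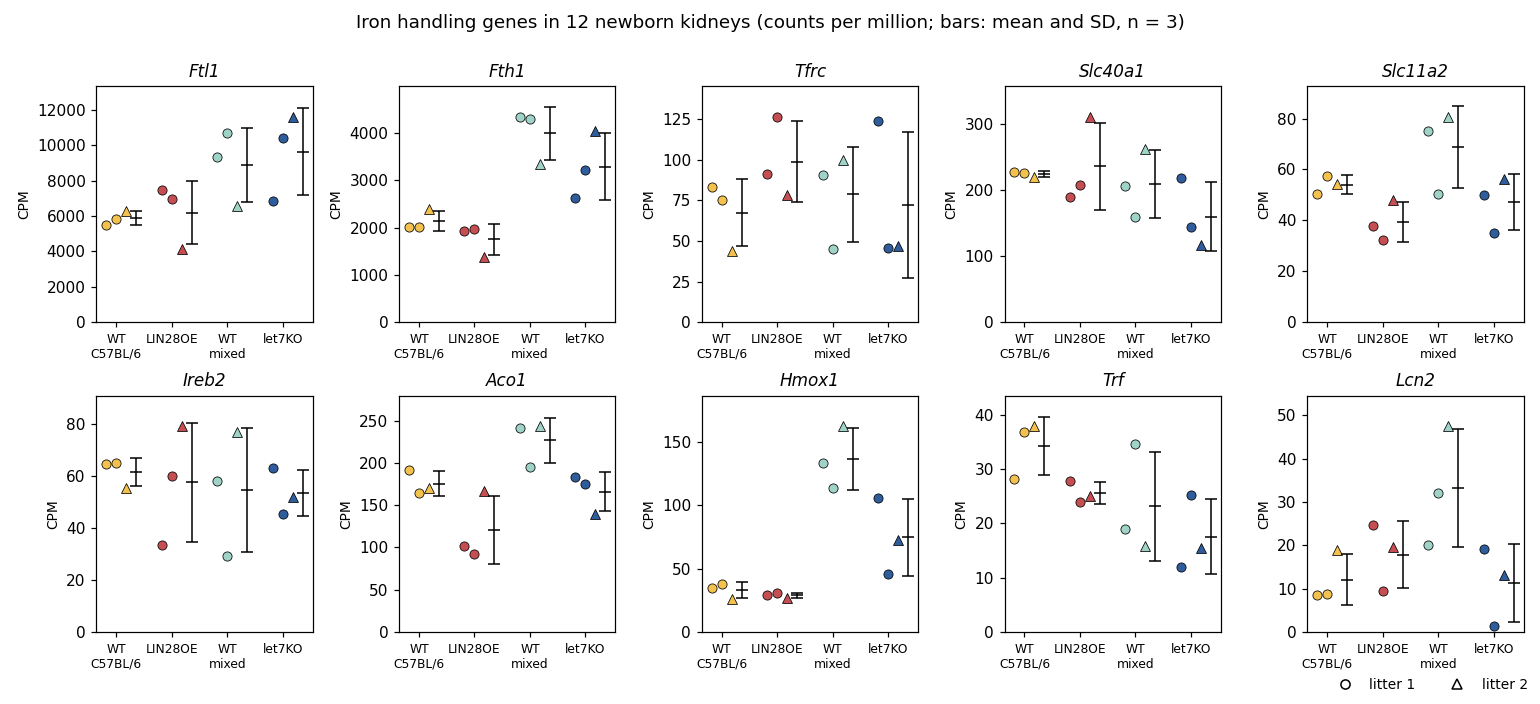
Level of each of the 10 genes in CPM, 1 point per kidney with the shape giving the litter, and the mean and SD of each group of 3 beside its points, on axes that start at 0. Hmox1 separates all 6 kidneys of mixed strain (45.5 to 162 CPM) from all 6 of C57BL/6 (26.1 to 38.2 CPM), and Fth1 does so as well.

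The ratio of light to heavy chain mRNA was apart in both models, a pattern noticed after the values had been seen. Counts of Ftl1 per count of Fth1 were 2.74, 2.91 and 2.65 in the C57BL/6 controls and 3.89, 3.54 and 3.01 in LIN28OE. They were 2.15, 2.50 and 1.97 in the mixed controls and 2.62, 3.25 and 2.88 in let7KO. Every mutant kidney lay above every control of its own experiment, and therefore necessarily also inside each litter. The mean ratio was 3.48 ± 0.443 against 2.76 ± 0.133 for LIN28OE and 2.91 ± 0.317 against 2.21 ± 0.266 for let7KO (SD, n = 3), and the geometric means were 1.25-fold and 1.32-fold higher. An exact two-sided permutation test gave p = 0.1 in each model, the smallest that 3 against 3 kidneys allow, so neither can pass 0.05. When each kidney was left out in turn, the log2 difference of the ratio stayed between 0.24 and 0.43 for LIN28OE and between 0.32 and 0.50 for let7KO. Of the 45 ratios that 10 genes can form, 7 were apart in LIN28OE and 3 in let7KO. This was the only one apart in the same direction in both models. Ratios of other genes were not counted, so how often such a pair occurs is not known. The mixed controls lay below the C57BL/6 controls (2.21 against 2.76, exact permutation p = 0.1), and the let7KO range took in that of the C57BL/6 controls.

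**Figure D4:**
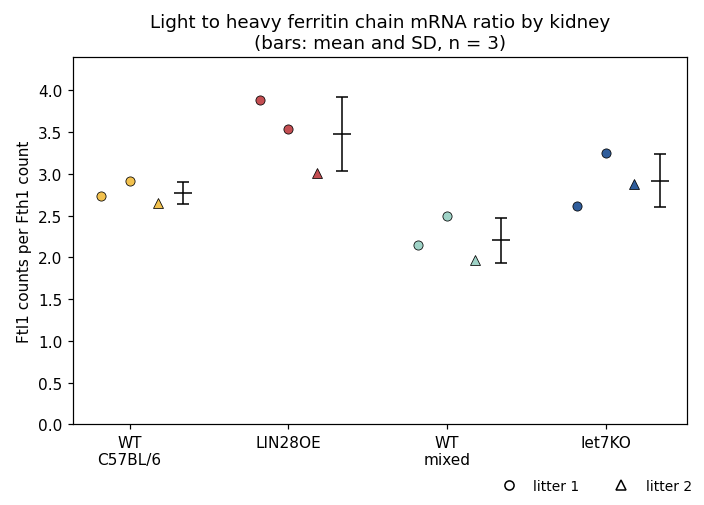
Ftl1 counts per Fth1 count in each kidney, with the mean and SD of each group of 3 and the litter given by the shape. Both mutant groups sit above their own littermate controls, and the let7KO kidneys (2.62 to 3.25) lie near the C57BL/6 controls (2.65 to 2.91).

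Ftl1 counts carry a further limit. The annotation holds Ftl1-ps1 on chromosome 13, whose transcript of 938 bases is 96.59% identical to that of Ftl1, and this copy had no row of its own. How reads shared by the copies were treated is not given in the sources used here, so part of the Ftl1 count could come from a copy or be lost to it.

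The genes of iron entry showed no called change. Trf encodes transferrin, the carrier of iron in plasma, and measured 28.1, 36.8 and 37.8 CPM in the C57BL/6 controls and 27.8, 23.9 and 25 CPM in LIN28OE. The LIN28OE kidneys lay just below their controls, at a log2 fold change of -0.42 ± 0.19 (adjusted p = 0.287, edgeR). In the mixed controls Trf measured 19, 34.6 and 15.8 CPM and in let7KO 11.9, 25.3 and 15.5 CPM, with a log2 fold change of -0.42 ± 0.37 (adjusted p = 0.722, edgeR). Liver genes, which mark the main source of transferrin, summed to between 113 and 394 CPM over all kidneys. None of the 10 was at 0 in any group, none passed in either model with edgeR or DESeq2 or had an unadjusted p under 0.05 there, and between the control groups 1 of the 10 was called, lower in the mixed strain. Their part in the Trf values was not tested.

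Tfrc, the receptor that takes up transferrin, measured 83.5, 75.0 and 44.0 CPM in the C57BL/6 controls and 91.0, 126 and 78.5 CPM in LIN28OE. The groups overlapped in that LIN28OE replicate 3 lay below C57BL/6 control 1, but inside each litter LIN28OE was above, with a log2 fold change of 0.55 ± 0.26 (adjusted p = 0.304, edgeR). In the mixed controls the values were 90.7, 45.2 and 100 CPM, and in let7KO 124, 45.5 and 47.1 CPM. Within let7KO alone the SD was 62.2% of the mean, and the log2 fold change was -0.13 ± 0.41 (adjusted p = 0.938, edgeR).

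Slc11a2 encodes DMT1, which moves iron across the membrane of the gut, tubule and endosome. It measured 50.4, 57.6 and 54.2 CPM in the C57BL/6 controls and 37.9, 32.4 and 47.9 CPM in LIN28OE, so that all 3 LIN28OE kidneys lay below. The mixed controls held 75.2, 50.5 and 80.7 CPM and the let7KO kidneys 50.1, 35.2 and 56.5 CPM, which overlapped but were apart inside each litter. The log2 fold change was -0.45 ± 0.19 (adjusted p = 0.242) in LIN28OE and -0.56 ± 0.25 (adjusted p = 0.46) in let7KO, both by edgeR, with exact permutation p of 0.1 and 0.2.

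Slc40a1, the only known cellular iron exporter, measured 228, 227 and 220 CPM in the C57BL/6 controls, an SD of 1.99% of the mean and the tightest of any gene and group here. In LIN28OE it measured 190, 208 and 312 CPM, on both sides of the controls, with a log2 fold change of 0.08 ± 0.19 (adjusted p = 0.885, edgeR). In the mixed controls it measured 207, 159 and 263 CPM and in let7KO 218, 145 and 117 CPM, with a log2 fold change of -0.40 ± 0.26 (adjusted p = 0.611, edgeR).

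The iron sensors Ireb2 and Aco1 encode the iron regulatory proteins, and the Aco1 product works as an aconitase when iron is ample. Ireb2 measured 64.5, 64.9 and 55.2 CPM in the C57BL/6 controls and 33.6, 60.1 and 79.1 CPM in LIN28OE. It measured 58.0, 29.4 and 76.8 CPM in the mixed controls and 63.2, 45.5 and 52.0 CPM in let7KO. Its groups overlapped in both models, at a log2 fold change of -0.09 ± 0.27 in LIN28OE and of -0.04 ± 0.32 in let7KO, with adjusted p of 0.911 and 0.973 in edgeR.

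Aco1 measured 192, 164 and 170 CPM in the C57BL/6 controls and 102, 92.3 and 167 CPM in LIN28OE. Both LIN28OE kidneys of litter 1 were far below every control, while replicate 3 lay within the range of the controls, and the log2 fold change was -0.54 ± 0.22 (adjusted p = 0.24, edgeR, and exact permutation p = 0.2). In the mixed controls Aco1 measured 241, 196 and 243 CPM and in let7KO 184, 175 and 139 CPM. All let7KO kidneys lay below all of their controls, at a log2 fold change of -0.46 ± 0.18 (adjusted p = 0.402, edgeR, and exact permutation p = 0.1). The interaction between the models was -0.09 ± 0.29 on the log2 scale for Aco1 and 0.09 ± 0.32 for Slc11a2.

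Tubule and progenitor markers differed in LIN28OE as well. There 3 of 10 proximal tubule genes fell and none rose at an adjusted p of 0.05 in edgeR (DESeq2 called 7), and the list summed to 1182 to 1589 CPM against 2896 to 2999 CPM in its controls. Every LIN28OE kidney, replicate 3 included, was among these low sums. Of 8 cap mesenchyme genes, 5 rose and none fell in edgeR (DESeq2 called 7), with sums of 570 to 799 CPM against 275 to 320 CPM. In let7KO edgeR called none of these 18 genes, with 4 proximal tubule genes and 1 cap mesenchyme gene at an unadjusted p under 0.05, and DESeq2 called Slc5a2 and Slc5a12. There the proximal tubule list summed to 3097 to 4072 CPM against 3448 to 4606 CPM in its controls, an overlap. The median log2 fold change of that list was -0.39, against -0.02 over all genes. No marker of either list was at 0 in any group. The control groups differed in both lists too, mixed against C57BL/6. Proximal tubule sums were 3448 to 4606 against 2896 to 2999 CPM, and cap mesenchyme sums 171 to 273 against 275 to 320 CPM. The median log2 differences were 0.63 and -0.62. In edgeR Hnf4a of the first list passed as higher (adjusted p = 0.00845) and Eya1 of the second as lower (adjusted p = 0.0307). DESeq2 called 5 and 2 genes. The part of cell composition in the Aco1, Slc11a2, Fth1 and Hmox1 values was not tested.

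Hmox1 measured 34.8, 38.2 and 26.1 CPM in the C57BL/6 controls and 28.9, 30.7 and 27 CPM in LIN28OE, an overlap with a log2 fold change of -0.19 ± 0.20 (adjusted p = 0.676, edgeR). It measured 134, 114 and 162 CPM in the mixed controls and 106, 45.5 and 72.6 CPM in let7KO. The highest let7KO kidney stayed below the lowest control, and the log2 fold change was -0.88 ± 0.29 (adjusted p = 0.369, edgeR, and exact permutation p = 0.1). With DESeq2 the same comparison had an adjusted p of 0.0604. Between the control groups the log2 difference was 2.05 ± 0.26 with an adjusted p of 0.00185 in edgeR, and it stayed between 1.90 and 2.17 under the 13 alternatives. The interaction between the models was 0.68 ± 0.36 with an adjusted p of 0.838 in edgeR.

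Macrophages recycle heme iron and carry Hmox1, and 12 macrophage genes summed to 189 to 228 CPM in the C57BL/6 controls, 139 to 206 in LIN28OE, 143 to 264 in the mixed controls and 132 to 159 in let7KO. In edgeR none of them passed between the control groups or in either model (unadjusted p under 0.05 for 1 between the controls, 3 in LIN28OE and 2 in let7KO), and DESeq2 called 2 in LIN28OE, Csf1r and Cx3cr1. Vsig4 was at 0 in LIN28OE, the mixed controls and let7KO, and Timd4 was at 0 in let7KO. The range of the list in the mixed controls overlapped that in the C57BL/6 controls. The part of macrophages in the Hmox1 values was not tested.

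Lcn2 encodes lipocalin 2, which binds iron-loaded siderophores and is made by neutrophils and by injured tubules. It measured 8.61, 8.86 and 18.8 CPM in the C57BL/6 controls and 24.6, 9.33 and 19.6 CPM in LIN28OE, with a log2 fold change of 0.57 ± 0.42 (adjusted p = 0.53, edgeR). In the mixed controls it measured 20.2, 32 and 47.4 CPM and in let7KO 19, 1.38 and 13.2 CPM, of which the lowest was 74 counts. All let7KO kidneys lay below all of their controls, at a log2 fold change of -1.57 ± 0.70 (adjusted p = 0.452, edgeR, and exact permutation p = 0.1). The interaction was the largest of the 10 genes, 2.13 ± 0.92 on the log2 scale, with an adjusted p of 0.764 in edgeR.

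The 10 neutrophil genes summed to 6.19 to 18.5 CPM in the C57BL/6 controls, 19.1 to 32.6 in LIN28OE, 13.4 to 35.9 in the mixed controls and 19.5 to 45.6 in let7KO. The median log2 difference of those tested was 1.12 in LIN28OE, 0.25 in let7KO and 1.26 between the control groups, where Lcn2 itself was at 0.57, -1.57 and 1.46 on the log2 scale. None passed in either model with edgeR or DESeq2 (3 of 7 in LIN28OE and 0 of 7 in let7KO had an unadjusted p under 0.05), and between the control groups none passed with edgeR, 2 had an unadjusted p under 0.05 and DESeq2 called Camp. Elane, Mpo and Cebpe were at 0 in let7KO, Mpo and Cebpe in LIN28OE, and Elane in the mixed controls. The tubule injury list of 6 genes, none at 0 in any group, summed to 1468 to 2057 CPM in let7KO and to 1984 to 2956 CPM in its controls with none called by edgeR or DESeq2 and 2 at an unadjusted p under 0.05. In LIN28OE it summed to 937 to 1318 CPM against 2055 to 2213 CPM, and 1 of its 5 tested genes fell with edgeR, while DESeq2 called 3 (Spp1, Clu and Vcam1). Havcr1, the kidney injury molecule of that list, was at 1.48 ± 1.48 CPM in the C57BL/6 controls, 28.9 ± 3.87 in the mixed controls and 6.33 ± 8.08 in let7KO (adjusted p = 0.208 between the control groups, edgeR), and is named after its values were seen. Between the control groups the list had a median log2 difference of -0.01, with none called by edgeR or DESeq2. Sox9, the other gene there with an unadjusted p under 0.05, was lower in the mixed controls (log2 -0.80 ± 0.35, edgeR). The part of neutrophils and of tubule injury in the Lcn2 values was not tested.

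Levels of some members followed a property of the whole library. For each kidney, a slope was fitted over genes of log2 CPM, as a difference from the gene's mean, on log2 transcript length, so that a positive slope means that long transcripts were counted relatively more. It ran from -0.184 (let7KO replicate 3) to 0.144 (LIN28OE replicate 3) in log2 units per doubling of length. Over 12 kidneys the level of Ftl1, a short mRNA, went with this slope at Pearson's r = -0.85 and Spearman's rho = -0.87 (permutation p = 0.00051 and 0.00049, adjusted over 11 relations 0.0028 and 0.00269). Without the 2 kidneys farthest from the median slope r was -0.74, and it was -0.88 inside the LIN28OE experiment and -0.87 inside the let-7 experiment (6 kidneys each). Among 10437 genes with a mean of at least 10 CPM, 6.88% had an r of -0.85 or below.

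Slc40a1, with an mRNA of 3370 bases, went the other way, at r = 0.92 and rho = 0.94 (permutation p = 1e-05, the smallest that 100000 permutations can give, and 4e-05, adjusted 0.00011 and 0.00044). Without the 2 farthest kidneys r was 0.85, and it was 0.76 and 0.97 inside the experiments, while 0.412% of the 10437 genes had an r as high. Ireb2, with the longest mRNA of the 10 at 5770 bases, had r = 0.69 and rho = 0.84 (permutation p = 0.0117 and 0.0012, adjusted 0.0431 and 0.0044), an r of 0.81 without the 2 farthest kidneys, and r of 0.73 and 0.66 inside the experiments. For the other 7 genes the adjusted permutation p was 0.231 or more, with r between -0.50 for Fth1 and 0.49 for Tfrc. Inside the experiments, however, r reached 0.84 and 0.86 for Aco1 and 0.69 and 0.75 for Slc11a2, while Hmox1 (0.34 and 0.84) and Tfrc (-0.21 and 0.84) followed the slope in the let-7 experiment. For the ratio of Ftl1 to Fth1 r was -0.38 (rho -0.29, adjusted permutation p of 0.304 and 0.577), but -0.66 and -0.89 inside the experiments. With the slope as a covariate in edgeR, Fth1 passed in LIN28OE (log2 -0.44, adjusted p = 0.00208) and Ftl1 passed between the control groups (log2 0.38, adjusted p = 0.0381). Calls rose over all genes too, to 6.98% in LIN28OE and 1.86% between the control groups. In LIN28OE 2 genes changed sign under the covariate, Ftl1 to -0.18 and Ireb2 to 0.08. In let7KO 4 did, Ftl1 to -0.35, Tfrc to 0.63, Slc40a1 to 0.07 and Ireb2 to 0.63, while Aco1, Slc11a2 and Hmox1 in let7KO came to -0.27, -0.28 and -0.49. The slope comes from the same libraries, and whether it is technical or follows the makeup of the kidneys was not tested.

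**Figure D5:**
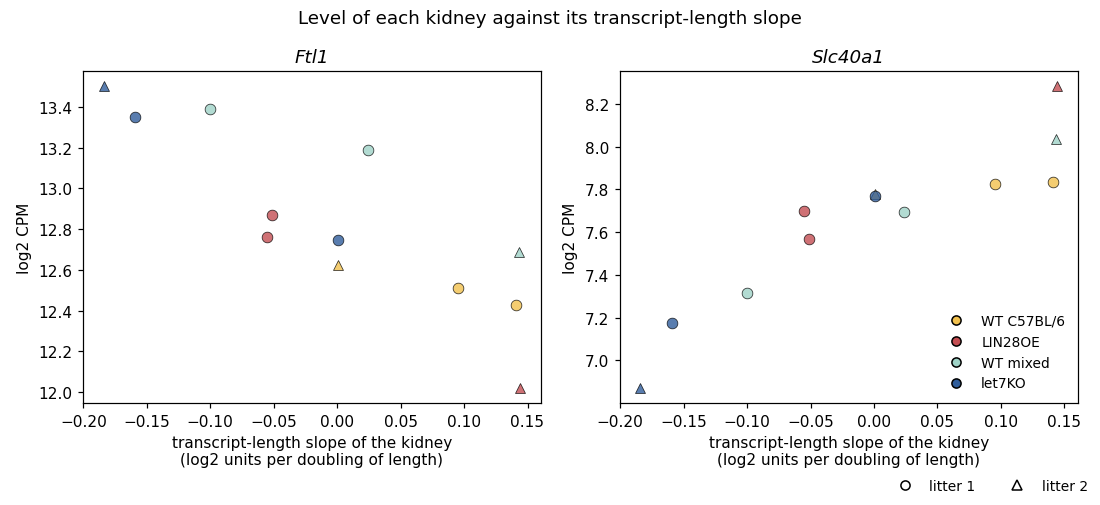
Level of Ftl1 and Slc40a1 in each kidney (log2 CPM) against that kidney's transcript-length slope, coloured by group with the litter given by the shape. Ftl1 goes down and Slc40a1 goes up along the slope, and LIN28OE replicate 3 (slope 0.144) has the lowest Ftl1 and the highest Slc40a1. A C57BL/6 control and a let7KO kidney, both at a slope of 0.001, nearly coincide for Slc40a1.

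The genes whose pattern over the 12 kidneys was most like that of Ftl1 were Slc25a39, Tmem192 and 0610011F06Rik, each at Pearson's r = 0.98 of log2 CPM among 10427 genes with a mean of at least 10 CPM. For Slc40a1 they were Sf3b3 (r = 0.97), Ywhaz (r = 0.97) and Eif4g2 (r = 0.96), and for Tfrc they were Tmx4 (r = 0.93), Ccnh (r = 0.86) and Lig3 (r = 0.86). These points share libraries, litters and the length slope, and no test was made of them.

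The wider iron and heme pathway, 63 further genes in 7 role groups, gave no gene with an adjusted p below 0.05 in either model with edgeR. In LIN28OE 19 of 58 tested genes had an unadjusted p under 0.05, 4 higher and 15 lower (18.0% of all genes did), and DESeq2 called 5, among them Steap4, Slc39a8, Pcbp2 and Bach1 (7.89% of all genes). In let7KO 12 of 57 had an unadjusted p under 0.05, 2 higher and 10 lower (10.8% of all genes did), and DESeq2 called 2, Steap2 and Fech (1.31% of all genes). Between the models 0 of 59 passed with either tool and 3 had an unadjusted p under 0.05 (6.27% of all genes). Between the control groups 1 of 59 passed with edgeR (0.627% of all genes), and DESeq2 called 3, Alad, Ppox and Slc48a1 (2.39% of all genes). In each group below, the smallest p is that over the 2 models.

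Of the 14 iron uptake genes, Lrp2, which encodes megalin, the scavenger of filtered proteins in the proximal tubule, was the most counted at a mean of 312 CPM. Its log2 fold change was -0.37 ± 0.20 in LIN28OE and -0.13 ± 0.16 in let7KO (adjusted p = 0.383 and 0.821, edgeR). The smallest p was that of Steap4, a metalloreductase, at 13.2 ± 3.83 CPM in the C57BL/6 controls, 2.76 ± 2.52 in LIN28OE, 10 ± 5.4 in the mixed controls and 0.697 ± 0.65 in let7KO (SD, n = 3). Its log2 fold change was -2.24 ± 0.73 (adjusted p = 0.149) in LIN28OE and -3.84 ± 0.81 (adjusted p = 0.296) in let7KO by edgeR. The median log2 fold change of the tested uptake genes was -0.64 in LIN28OE and -0.37 in let7KO, against -0.02 over all genes in each.

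Export and ferroxidase genes were led by Heph, which oxidizes iron as it leaves the cell, at 48.8 CPM, with log2 fold changes of -0.47 ± 0.20 and -0.26 ± 0.33 (adjusted p = 0.25 and 0.821, edgeR). Hephl1, of the same group, was listed at 0 in all 12 kidneys, as was Ftmt, the mitochondrial ferritin, while Hamp, the hormone that closes ferroportin, was listed at 0 in 3 of 4 groups. Among the chaperones that load iron into ferritin, Pcbp1 averaged 432 CPM, with log2 fold changes of 0.02 ± 0.12 and -0.13 ± 0.15, and Pcbp2 had the smallest p, at 0.58 ± 0.17 in LIN28OE (adjusted p = 0.124, edgeR).

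In the sensing group Hif1a, a subunit of the hypoxia-inducible factors, was the most counted, at 159 CPM, and Fbxl5, which targets the Ireb2 protein for decay when iron is ample, had the smallest p, at a log2 fold change of -0.64 ± 0.21 in LIN28OE (adjusted p = 0.155, edgeR). The mitochondrial and iron-sulfur cluster genes had a median log2 fold change of -0.02 in both models, equal to that of all genes. Isca1, an assembly factor of iron-sulfur clusters, had their smallest p, at a log2 fold change of -0.34 ± 0.12 in LIN28OE (adjusted p = 0.182, edgeR).

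Heme synthesis was led by Alad, the second enzyme of the pathway, at a mean of 227 CPM. Between the control groups Ppox, the enzyme before the last step, fell by 1.39 on the log2 scale (SE 0.21, adjusted p = 0.00545, edgeR), from 47.8 ± 4.57 CPM in the C57BL/6 controls to 18.2 ± 3.81 in the mixed controls, and it is named after its values were seen. LIN28OE kidneys held 47.2 ± 5.07 CPM of Ppox and let7KO kidneys 22.4 ± 3.29, so that Ppox too followed the experiment. Among heme carriers and heme breakdown genes, Slc48a1, which moves heme out of the lysosome, was the most counted at 168 CPM. Bach1, which represses Hmox1 and ferritin genes, had the smallest p of the 2 models there, at 11.5 ± 2.67 CPM in the C57BL/6 controls and 23.4 ± 4.91 in LIN28OE (log2 1.02 ± 0.26, adjusted p = 0.0891, edgeR), and at 12.5 ± 4.34 and 13.8 ± 2.15 CPM in the mixed controls and let7KO.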

How the data were processed

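Whole-kidney RNA was sequenced from SMARTer libraries, 1 per kidney. The authors deposited raw counts per gene symbol, with no normalization. The submitters' processing notes name cutadapt, TopHat2 2.0.9, Bowtie2, SAMtools 0.1.19, HTSeq and mm10, and the gene annotation is not given in the sources used here. Groups came from the sample labels.

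Each model was fitted alone (6 kidneys) in edgeR 4.0.16 (R 4.3.3) with filterByExpr (minimum count 10, minimum total 15), TMM, the quasi-likelihood test and Benjamini-Hochberg adjustment over all genes tested. The interaction and the control groups were tested in 1 fit of 12 kidneys. Standard errors were the log2 fold change over the square root of F. CPM values were TMM-scaled over 12 kidneys, and log2 CPM for correlations used a prior count of 2. Exact two-sided permutation tests compared log2 values of 3 against 3 kidneys. Levels between genes used the longest GENCODE M21 transcript paired with a RefSeq mRNA. UTRs and coordinates came from GENCODE M21 on GRCm38. Limits from 3 counts cover counting error only.

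The 10 members and the lists were chosen with earlier results of these data known. Further pathway genes were named as the most counted and the gene with the lowest p in either model of each role group, and some are not reported here. Litter numbers in the labels, with controls described as littermates, were taken to pair kidneys, although no label says that equal numbers mark 1 litter. Deviations from group means correlated at -0.04 and -0.01 on average between kidneys of the same litter number in the LIN28OE and let-7 models. No 2 kidneys of a group had alike counts (chi-square per gene of 31.6 or more). The fits were tested on simulated data. Alternatives were DESeq2 1.42.0, other normalizations and filters, litter as a block, a length-slope covariate (slope over genes with a mean of at least 1 CPM, pseudocount 0.5), other sample sets and each kidney left out.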

Additional observations from a re-analysis of the deposited data

How the results depend on the processing

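With the length slope as a covariate, 1 of the 10 genes (Fth1) passed adjusted p 0.05 in LIN28OE (6.98% of all genes did, against 1.23% without it), and Fth1 passed unadjusted p 0.01 in LIN28OE (1738 of 15793 genes did) and in let7KO (1.76%). In let7KO, 1 gene (Hmox1) passed unadjusted p 0.01 with DESeq2, with no filter, with at least 1 CPM in every kidney and in 1 fit of 12 kidneys, against 0 as reported, and 2.77% to 5.44% of all genes did so in those fits. Between the control groups, upper-quartile normalization left 1 (Hmox1) of 2. Leaving out each kidney in turn gave 0 to 3 genes in LIN28OE under either threshold, with 3 only without LIN28OE replicate 3, where 12.8% of 16258 genes passed adjusted p 0.05 and 15.4% unadjusted p 0.01, 0 to 1 in let7KO at unadjusted p 0.01, with 1 only without let7KO replicate 1 (8.12% of all genes), 0 at adjusted p 0.05 in let7KO and between the models, and 1 to 2 between the control groups. With litter as a replicate block, 0 genes passed in either model or between them, as without it, and no call of the 10 genes changed, though the block lowered the count over all genes from 194 to 95 in LIN28OE. No litter block was fitted between the control groups, which share no litter. The 2 calls as reported, Fth1 and Hmox1 between the control groups, kept their sign in all 13 alternatives. Ftl1 in LIN28OE, called only without LIN28OE replicate 3 (log2 0.287), had the other sign with the length-slope covariate (log2 -0.179) and without LIN28OE replicate 1 (log2 -0.082). The cause of these shifts was not tested. With 3 kidneys a group, small changes in the widely spread Lcn2, Tfrc and Ireb2 could not be resolved.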
